A study of Mus musculus with 6 samples.

Results

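Red blood cells carry oxygen on haemoglobin, a tetramer of alpha and beta globin chains that each hold a haem group, and they are bounded by a membrane whose spectrin skeleton is tethered to the anion exchanger band 3. Band 3 (Slc4a1) is held to the skeleton by ankyrin-1 (Ank1) and protein 4.2 (Epb42), and the erythroid form of 5-aminolevulinate synthase (Alas2) makes the first intermediate of haem for haemoglobin. Circulating reticulocytes still hold mRNA from the marrow, so whole liver RNA contains red cell transcripts in an amount that depends on the blood left in the tissue as well as on the cells in it.

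The 8 genes described here are Slc4a1, Hba-a1, Hba-a2, Hbb-bs, Hbb-bt, Epb42, Ank1 and Alas2, taken by symbol from the 16123 genes of the deposited comparison of wildtype (WT) with Txndc5 knockout (KO) liver. They were picked because this comparison was already known to place several of them higher in KO, so their ratios are given as descriptions and were not tested. The series holds 6 liver RNAseq libraries from male mice, 3 pools per genotype and 3 mice per pool. The mice were 2 months old when a purified chow diet began, and were fasted for 16 h after 4 weeks on it. By their labels, WT mice were C57BL/6Rj, and KO mice were C57BL/6JRj-Txndc5<em2Mdnp>/Ciba. In KO mice, exon 3 of Txndc5, a thioredoxin domain protein of the endoplasmic reticulum, had been deleted by CRISPR. According to the paper, mice of both genotypes came from crosses between heterozygous mice. The KO line descends from 1 founder, the deletion is present in all cells, and a pool averages its mice, so that differences between single mice within a pool are not seen. Liver sections had been washed in PBS.

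Depth ran from 44040160 to 46050030 clean reads per library, 91.6 to 93.7% of reads mapped to the genome, and ribosomal reads made up 0.26 to 0.69%. Txndc5 itself stood at 2697 in WT against 90.8 in KO, the lowest ratio of all genes in the table. The liver identity of the tissue was visible in the hepatocyte markers, of which all 12 matched a row, with albumin and apolipoprotein A1 among the highest.

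Each gene has 1 deposited value per genotype, with no spread. Their midpoint equals the average normalized read count (reads divided by a size factor) of all 6 libraries, but the values themselves are not the means of their genotypes, since they lie closer together. For weakly expressed genes, the reads of the 6 separate libraries could be solved from these values, taking each library to hold a whole number of reads. Whether these whole numbers are counted reads or rounded estimates is not known. Solving gave a single set of reads for 8061 of 8081 genes with a summed normalized read count up to 400. Between 400 and 600 it did so for 476 of 979 genes. In 16 more genes of the upper range, Slc4a1 among them, 1 of several sets was kept by its direction. The deposited ratio was nearer to 0 than that of the solved means in 2397 of 2397 solved genes with reads in both genotypes, a mean of 1 or more and solved means at least 1.5-fold apart. Values and ratios below are the deposited ones unless they are called normalized reads or solved. The solved libraries carry a genotype but no pool number, and are called KO-a, KO-b, KO-c, WT-a, WT-b and WT-c in order of falling size factor within each genotype.

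The haemoglobin genes come in near-identical copies, and this limits how reads are split between them. On GRCm38, Hba-a1 lies at chr11:32283511-32284465 and Hba-a2 at chr11:32296489-32297298, both on the plus strand with 3 exons. Hbb-bs lies at chr7:103826534-103828096 and Hbb-bt at chr7:103812524-103813996, both on the minus strand with 3 exons. The coding sequences of the alpha pair, 426 bases each, differ at 1 base (C381T, Hba-a1 first, counted from the first base of the start codon), and those of the beta pair, 441 bases each, also differ at 1 base (C417T, Hbb-bs first). The stretches around these bases are shown 5′ to 3′ on the coding strand, with the differing base in capitals.

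Hba-a1: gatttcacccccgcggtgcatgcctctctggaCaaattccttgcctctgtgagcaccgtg

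Hba-a2: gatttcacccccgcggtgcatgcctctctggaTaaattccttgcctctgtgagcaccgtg

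Hbb-bs: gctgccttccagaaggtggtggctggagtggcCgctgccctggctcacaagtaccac

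Hbb-bt: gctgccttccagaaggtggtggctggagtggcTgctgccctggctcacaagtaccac

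With reads of 100 bases, 85.9% of the coding windows of that length are the same in Hba-a1 and Hba-a2, and 92.7% are the same in Hbb-bs and Hbb-bt. The untranslated ends of the transcripts are not part of this comparison. As far as they rest on coding reads, the values of single copies are therefore uncertain, and the sum of each pair is the firmer quantity.

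Upstream sequence is shown for the haemoglobin copies and Alas2, the abundant genes of the group, as the 120 bases before the RefSeq start of transcription (GRCm38.p6), read on the strand of the gene. Capitals mark matches on either strand to 4 elements long known from erythroid promoters. The first is CACCC. The next is CCAAT. The third is TATAA. The last is a GATA element, either AGATAA itself, or else TGATAA. The windows are chr11:32283552-32283671 for Hba-a1, chr7:103827929-103828048 for Hbb-bs, chr7:103813924-103814043 for Hbb-bt and chrX:150547297-150547416 for Alas2. The gene positions in the text come from GENCODE, whose starts differ from the RefSeq ones. The windows therefore overlap those positions, wholly for Hba-a1 and Hbb-bs and in part for Hbb-bt and Alas2.

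Hba-a1: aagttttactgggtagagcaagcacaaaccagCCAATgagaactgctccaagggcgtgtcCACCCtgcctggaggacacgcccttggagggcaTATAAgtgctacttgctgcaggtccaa

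Hbb-bs: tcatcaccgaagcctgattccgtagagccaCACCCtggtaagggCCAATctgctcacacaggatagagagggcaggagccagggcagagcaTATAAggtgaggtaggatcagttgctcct

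Hbb-bt: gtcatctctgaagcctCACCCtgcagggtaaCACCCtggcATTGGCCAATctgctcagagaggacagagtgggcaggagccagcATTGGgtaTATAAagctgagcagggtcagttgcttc

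Alas2: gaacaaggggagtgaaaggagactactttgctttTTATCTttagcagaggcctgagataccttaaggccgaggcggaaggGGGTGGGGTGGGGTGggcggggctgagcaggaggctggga

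The Hba-a2 sequence equals that of Hba-a1 over 247 upstream bases once shifted by 3 bases, so it is not shown. Over 250 bases, all 4 haemoglobin genes held matches to the first 3 elements, each also present within 120 bases of the start. Alas2 had 3 CACCC matches, at 40, 35 and 30 bases, and TATAA only farther off, the nearest at 207 bases. Epb42, not shown, had TATAA at 125 bases and neither of the first 2 elements. A GATA match stood 86 bases before the start of Alas2, 183 in Hba-a1, 186 in Hba-a2, 210 in Hbb-bs and 226 in Epb42, and none was found in Hbb-bt. Over the 250 bases before the start of 32851 promoters, CACCC occurred in 52.0%, CCAAT in 33.8%, TATAA in 22.8% and either GATA form in 16.6%. These matches describe letters only, and none of the measurements here bears on binding.

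Among the globins, Hba-a1, an adult alpha globin gene, stood at 55601 in WT against 82090 in KO (log2 ratio 0.56). Hba-a2, the other adult alpha gene, had 31422 in WT and 44170 in KO (log2 ratio 0.49). Hbb-bs, a major adult beta globin gene, had 25147 in WT and 43522 in KO (log2 ratio 0.79). Hbb-bt, its partner copy, had 4508 in WT and 7733 in KO (log2 ratio 0.78). All 4 genes thus had the higher value in KO, and in whole tissue the number of red cells and the mRNA per cell cannot be told apart.

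Summed over the copies, the alpha genes had 87023 in WT and 126260 in KO, a 1.45-fold higher value in KO. The beta genes had 29655 in WT and 51255 in KO, a 1.73-fold higher value. Together the 4 genes took up 0.590% of all values in WT and 0.958% in KO, 1.52-fold more in summed value. The ratio of alpha to beta values was 2.93 in WT and 2.46 in KO. Within the pairs, Hba-a1 stood at 1.77 times Hba-a2 in WT and 1.86 times in KO, and Hbb-bs at 5.58 times Hbb-bt in WT and 5.63 times in KO. There is no replicate error for any of these ratios, because none of the haemoglobin genes was low enough for its reads to be solved. For the same reason it is not known how far their deposited values are drawn together.

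Alas2 (chrX:150547375-150570638, plus strand, 11 exons) stood at 2105 in WT against 2786 in KO (log2 ratio 0.40). The haemoglobin sum was 55.4 times the Alas2 value in WT and 63.7 times in KO.

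Slc4a1 (chr11:102348824-102366203, minus strand, 20 exons) had the largest ratio of the 8 genes, 46.6 in WT against 129 in KO, 2.77-fold (log2 ratio 1.47). This was the third highest ratio among all genes in the table. Ank1 (chr8:22974844-23150497, plus strand, 44 exons in the longest coding transcript) had 4.94 in WT and 8.19 in KO (log2 ratio 0.73). Epb42 (chr2:121017891-121037072, minus strand, 13 exons) had 0.547 in WT and 0.672 in KO (log2 ratio 0.30), which rests on 4 reads in all 6 libraries, none of them in WT.

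**Figure D1:**
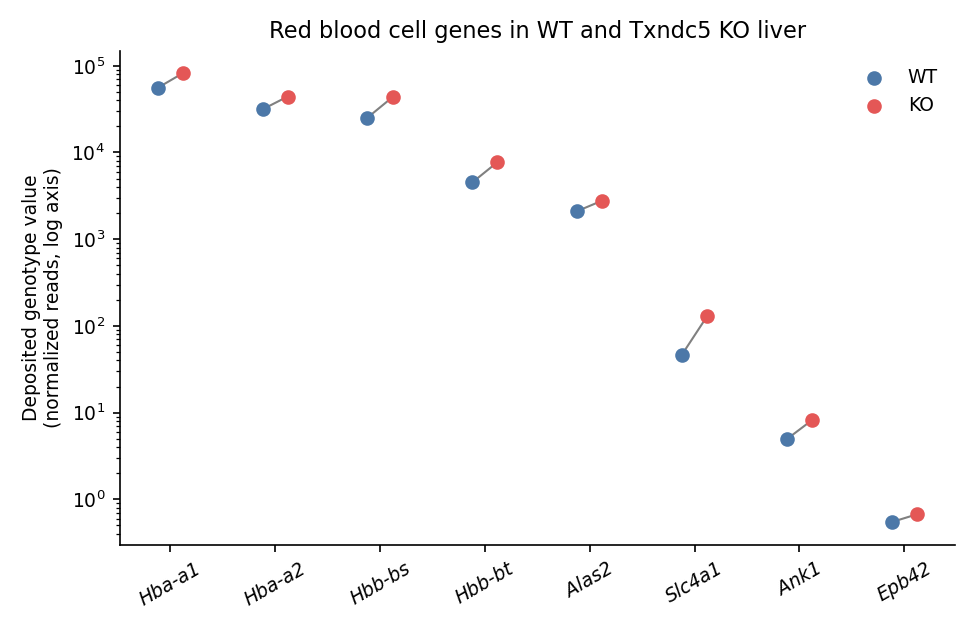
Deposited value per genotype on a log axis (normalized reads) for the 8 red blood cell genes, WT in blue and KO in red, joined for each gene and ordered by mean value. Each point is the authors' single value for a genotype, and all 8 KO points lie above their WT points, from Hba-a1 (55601 and 82090) down to Epb42 (0.547 and 0.672).

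Levels between genes can be compared only per length. Per kilobase of the transcript length in the deposited table, the WT level fell in the order Hba-a1 (97717), Hba-a2 (53531), Hbb-bs (39354), Hbb-bt (6978), Alas2 (1063), Slc4a1 (10.2), Ank1 (0.681) and Epb42 (0.140). The KO order was the same, from 144270 for Hba-a1 through 28.2 for Slc4a1 to 0.171 for Epb42. Within the order, neighbours that are copies of each other share reads, and no spread is available to separate the globin neighbours. For Slc4a1, Ank1 and Epb42 the genotype levels are drawn together as described above. For the haemoglobin genes and Alas2 this could not be checked, because their reads were not solved.

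Genes whose mean over both genotypes reached 10 are called expressed here. Of the 8 genes, 6 were expressed in this sense (not Ank1 and Epb42), and 3 of these 6 (Slc4a1, Hbb-bs and Hbb-bt) were 1.5-fold or more higher in KO, none lower. Over all 11367 expressed genes, 1.57% were 1.5-fold or more higher in KO and 5.79% lower; since the genes were chosen on this comparison, nothing is read from the difference. All 6 had a log2 ratio above 0, as did 42.3% of the 11367. The median log2 ratio was 0.67 for the 6 genes and -0.05 for all 11367. The limit is 0.58 on the log2 scale; the lowest ratio past it was that of Hbb-bt, 0.78, and the highest short of it that of Hba-a1, 0.56. Only 0.0176% of expressed genes had a higher ratio than Slc4a1, against 0.475% for Hbb-bs, 1.69% for Hba-a1, 2.60% for Hba-a2 and 4.74% for Alas2.

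The reads of single libraries could be solved for 3 of the 8 genes, Slc4a1, Ank1 and Epb42. For Slc4a1, 2 sets of reads gave the deposited values, and 1 of them had the deposited direction; at the exact rounding of the table only that set remained. Its reads were 37 in KO-a, 112 in KO-b and 254 in KO-c, against 26 in WT-a, 31 in WT-b and 39 in WT-c. Divided by the size factors, this is 28.2, 108 and 287 in KO and 21.2, 35.3 and 47.7 in WT. The genotypes overlap, because KO-a lies below WT-b and WT-c, while KO-b and KO-c lie above all WT libraries.

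The mean normalized read count of Slc4a1 was 141 ± 132 in KO and 34.7 ± 13.2 in WT (SD, n = 3 each), a 4.06-fold higher mean. The fold between these means is larger than the 2.77-fold between the deposited values, as it is for Ank1 too. KO-c alone held 63.0% of the Slc4a1 reads of KO, and without it the KO mean was 1.96-fold the WT mean. The difference between the means was smaller than the SD in KO. The paper also measured Slc4a1 by RT-qPCR in the RNA of single mice. There it reports a significantly higher level in KO, with a smaller log2 ratio than by RNAseq.

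Ank1 had 3, 5 and 20 reads in KO-a, KO-b and KO-c and 3, 1 and 5 reads in WT-a, WT-b and WT-c. The normalized read counts were 2.29, 4.83 and 22.6 in KO and 2.45, 1.14 and 6.11 in WT, with means of 9.90 ± 11.1 and 3.23 ± 2.58 (SD, n = 3 each). KO-c was again the highest library, and the other KO libraries lie within the WT range. The ratio of the means was 3.06 with KO-c and 1.10 without it. Epb42 had 1 read in KO-a, 3 in KO-b and none in KO-c or in WT, so no fold is given.

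KO-c was the highest of the 6 libraries in 12.2% of the 6538 solved genes with a mean of 1 or more, and lay 4-fold or more above the WT mean in 2.32% of those with WT reads. Slc4a1 and Ank1 both belong to these genes. In each genotype the normalized Slc4a1 level was higher the smaller the size factor of the library, which was 1.31, 1.04 and 0.886 for KO-a, KO-b and KO-c and 1.22, 0.879 and 0.818 for WT-a, WT-b and WT-c. The Slc4a1 reads had the same order before division by the size factors. With size factors re-estimated from solved genes, the log2 difference in normalized Slc4a1 reads was 1.57, against 1.52 with those used here. The part of the size factor in the result was not tested further. An order of KO-c over KO-b over KO-a was found in 12.9% of solved genes.

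The genes with a solved profile most like that of Slc4a1 were sought among 3798 genes by Pearson's r of log2(normalized reads + 1) over the 6 libraries. They were Lpcat2 (r = 0.979), Kiss1r (0.974), Emilin2 (0.969), Inpp5d (0.964), Ccdc51 (0.957), Zscan25 (0.956), Adcy3 (0.952) and Nup93 (0.948). Their KO means were 1.16- to 1.41-fold their WT means, much less than the 4.06-fold of Slc4a1. Of the 3798 genes, 30 reached an r of 0.9, and the profiles share libraries and size factors. Likeness over 6 libraries was not tested, and no link between these genes and Slc4a1 is read from it.

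**Figure D2:**
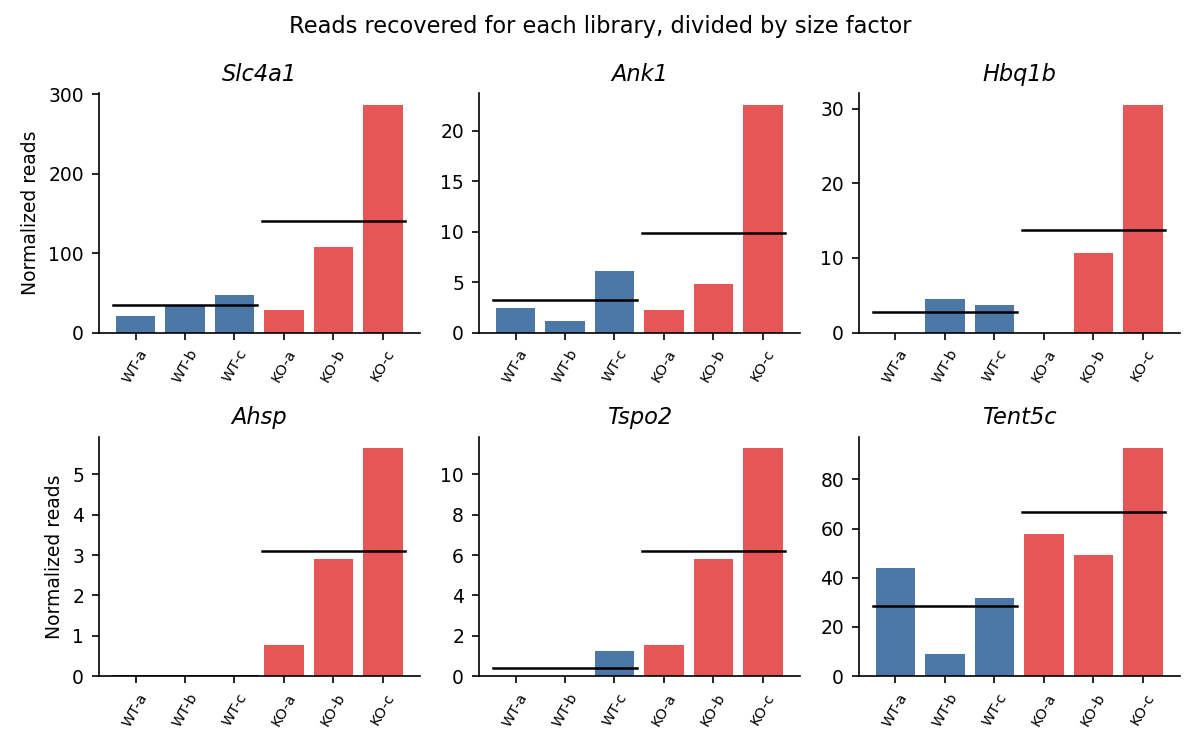
Normalized reads (reads divided by the size factor of the library) in the 3 WT (blue) and 3 KO (red) libraries for Slc4a1, Ank1 and 4 further red cell genes, each panel with its own axis from 0 and black lines at the genotype means. KO-c is the highest library in all 6 panels, reaching 287 for Slc4a1, whereas KO-a lies at 28.2, within the WT range of 21.2 to 47.7.

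The surrounding pathways were followed in 7 lists with 98 genes, of which 90 matched a row and 59 were expressed. Of these 59 genes, 3 were 1.5-fold or more higher in KO and none was lower, against 1.57% and 5.79% of all genes. Slc25a37 and Tent5c were among the 3. Of the 59, 12 had solved reads, and by the ratio of the solved means 2 of these 12 were 1.5-fold or more higher and 2 lower, against 5.13% and 18.8% of all 3799 solved genes at this level. The lower ones were Sptb, at 0.557 times its WT mean, and Slc4a7, at 0.576 times. By the deposited values none of the 12 was lower.

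The other red cell membrane and skeleton genes had 11 expressed members, none past 1.5-fold in either direction by the deposited values, and a median log2 ratio of 0.13. Epb41, which joins spectrin to actin, had 2154 in WT and 2393 in KO. The water channel Aqp1 had 1812 and 1699, and the porphyrin transporter Abcb6 had 1630 and 1801. These 3 genes are also used by other liver cells, and the erythroid beta spectrin Sptb had 14.3 in WT and 9.89 in KO. Its normalized read counts were 5.33, 4.83 and 15.8 in KO and 6.53, 19.3 and 20.8 in WT, so the genotypes overlapped.

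Haem synthesis had 12 expressed genes, with a median log2 ratio of 0.05. Slc25a37, the mitochondrial iron importer mitoferrin-1, had 110 in WT and 192 in KO (log2 ratio 0.80) and was the only member past 1.5-fold. Abcb10, a mitochondrial transporter that is known to stabilise it, had 138 and 197. Alas1, the synthase of the liver's own haem, had 19344 in WT and 24144 in KO (log2 ratio 0.32), near the 0.40 of its erythroid relative Alas2. Alad, the next enzyme of the pathway, had 4004 and 3885, and Fech, which inserts the iron, had 1675 and 1995.

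The late erythroid list had 14 expressed genes, a median log2 ratio of 0.27 and 2 genes past 1.5-fold. Tent5c, a poly(A) polymerase that the table carries under its older symbol Fam46c, had 32.4 in WT and 62.5 in KO (log2 ratio 0.95). Its normalized read counts were 57.9, 49.2 and 92.6 in KO and 44.1, 9.10 and 31.8 in WT, so the genotypes did not overlap. The highest genes of the list, Blvrb (3152 and 2897), Fam210b (2124 and 2065) and Prdx2 (1912 and 1854), are also expressed by other cells and had log2 ratios of -0.12 to -0.04. Tspo2, an erythroid protein of the translocator family, had 1.52, 5.79 and 11.3 normalized reads in KO and 0, 0 and 1.22 in WT.

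The remaining globins were all below the limit for expressed genes. Hbq1b, a theta globin gene, had 0, 10.6 and 30.5 normalized reads in KO and 0, 4.55 and 3.67 in WT, so that KO-a lay with WT-a at 0. Hbq1a, its copy, stood at 2.73 in WT against 2.53 in KO, and Hbb-b1, a beta globin name of another mouse haplotype, had 2.16 and 2.63. Both share sequence with more abundant globin genes and their values are uncertain. Ahsp, the chaperone of free alpha globin, had 0.762, 2.90 and 5.65 normalized reads in KO and 0 in all 3 WT libraries. Hbq1b, Ahsp and Tspo2 were singled out after their values had been seen.

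Erythroid transcription factors and the erythropoietin receptor had 5 expressed genes, none past 1.5-fold, and a median log2 ratio of -0.10. The cofactors Zfpm1 (4223 in WT and 3825 in KO) and Ldb1 (987 and 758) and the factor Klf1 (142 and 133) all had the higher value in WT. Gata1, the defining factor of the lineage, was near 0 with 0.297 in WT and 0.333 in KO. Of the 11 genes for the clearance of haemoglobin and haem and the handling of iron, none passed 1.5-fold and the median log2 ratio was 0.07. The highest were transferrin Trf (272947 in WT and 270270 in KO), haemopexin Hpx (111196 and 117062) and ferritin light chain Ftl1 (111298 and 108312). Of the relatives of Slc4a1, Ank1 and Epb42, 6 were expressed, none passed 1.5-fold by the deposited values and the median log2 ratio was -0.09. Slc4a2, the anion exchanger of most tissues, had 667 in WT and 662 in KO, the bicarbonate transporter Slc4a4 had 805 and 657, and the transglutaminase Tgm2 had 2423 and 2355.

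**Figure D3:**
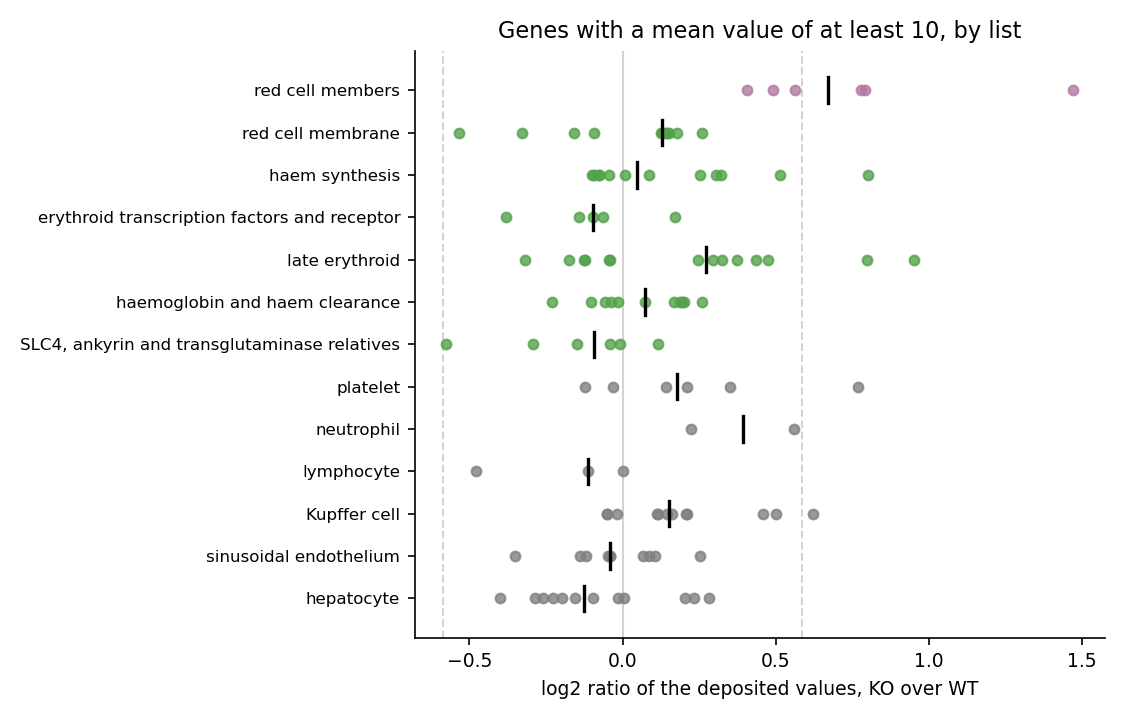
Log2 ratio of the deposited values, KO over WT, for expressed genes: the red blood cell genes described here (purple), the 6 pathway lists with such genes (green) and 6 lists of cell type markers (grey), 1 point per gene. Black bars are medians and dashed lines mark 1.5-fold; the purple points run from 0.40 to 1.47, and the medians of the green lists lie between -0.10 and 0.27.

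Counted over solved libraries, 33 pathway genes had a mean of 1 or more. Every KO library lay above every WT library in 5 of them, Ahsp, Tspo2 and Tent5c included, and below in 1 (Slc4a11, another relative of Slc4a1). Over all 6538 solved genes of that level, 3.3% had every KO library above and 3% had every KO library below. KO-c was the highest library in 15 of the 33 genes, against 12.2% over all solved genes. Without KO-c, the count with both other KO libraries above all WT libraries was 6 of 33, against 7.48% of all. Leaving out a library cannot lower this count.

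limma was fitted to the log2 normalized reads of 3307 solved genes with a summed count of 60 to 400, a range that holds none of the 8 genes and 12 genes of the pathway lists. No gene passed an adjusted p of 0.05, and 54 genes (1.63%) had an unadjusted p under 0.05. Of the 12 pathway genes, 1 had an unadjusted p under 0.05, Tent5c, with a log2 difference of 1.40 ± 0.57 (SE) and an adjusted p of 0.999 by limma with Benjamini-Hochberg adjustment. All 3 KO libraries of Tent5c lay above all 3 WT libraries.

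Markers of other blood cells moved partly with the same library. The 11 solved platelet genes summed to 133, 161 and 271 normalized reads in KO-a, KO-b and KO-c and to 113 to 172 in WT. Of the 6 expressed platelet genes, 1 was past 1.5-fold, the chemokine Ppbp (11.5 in WT and 19.6 in KO), while Itgb3 (42.5 and 54.2) and Itga2b (45.6 and 50.4), the chains of the fibrinogen receptor, were not. The 14 solved neutrophil genes summed to 70.9, 71.4 and 105 in KO and to 52.3 to 78.5 in WT. The 2 expressed ones, Csf3r (24.8 in WT and 29.0 in KO) and Mmp9 (8.78 and 12.9), were not past 1.5-fold by the deposited values. Among those too low to count as expressed, Prtn3 had 6.52 and 6.94. Retnlg, also below that limit, was past 1.5-fold with 2.33 in WT and 3.54 in KO. The 12 solved lymphocyte genes summed to 91.7 to 113 in KO and 75.9 to 172 in WT, with Cd79a at 37.4 in WT and 26.8 in KO, Ccl5 at 24.9 in both and Cd79b at 19.8 and 18.3. Their part in the red cell values was not tested.

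Among resident cells, all 12 Kupffer cell markers were expressed, with a median log2 ratio of 0.15. Marco, a scavenger receptor, was past 1.5-fold with 47.8 in WT and 73.5 in KO. Its normalized read counts were 52.6, 49.2 and 130 in KO-a, KO-b and KO-c and 13.9, 69.4 and 48.9 in WT-a, WT-b and WT-c, with KO-c the highest. The 2 solved Kupffer genes, Marco and Timd4, summed to 182 in KO-c and to 51.4 to 118 in the other 5 libraries, and their part in the red cell values was not tested either. The other leading Kupffer genes were not past 1.5-fold: C1qb had 1050 in WT and 1137 in KO, Cd5l had 832 and 1142, and Csf1r had 886 and 989. The 10 sinusoidal endothelial markers had a median log2 ratio of -0.04 and the 12 hepatocyte markers -0.13, and none of either list was past 1.5-fold. Of the endothelial genes, Ehd3 had 808 in WT and 961 in KO, Dnase1l3 had 830 and 806, and Clec4g had 682 and 663. Of the hepatocyte genes, albumin (Alb) had a log2 ratio of 0.0033, Apoa1 of -0.40 and the protease inhibitor Serpina1c of -0.15.

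By library, the 6 solved genes of the other globins and the globin chaperone summed to 3.81, 14.5 and 48.6 normalized reads in KO-a, KO-b and KO-c, and to 2.45, 7.96 and 13.5 in WT-a, WT-b and WT-c. This is the order that Slc4a1 has within each genotype. The 8 solved late erythroid genes summed to 186, 173 and 283 in KO and 216, 124 and 108 in WT, which follows that order in neither genotype. The 14 solved membrane genes summed to 131 to 172 in KO and 145 to 159 in WT, without a high value in KO-c. The 7 solved transcription factor and receptor genes summed to 76.2 to 103 in KO and 75.1 to 93.1 in WT, with KO-c the highest.

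**Figure D4:**
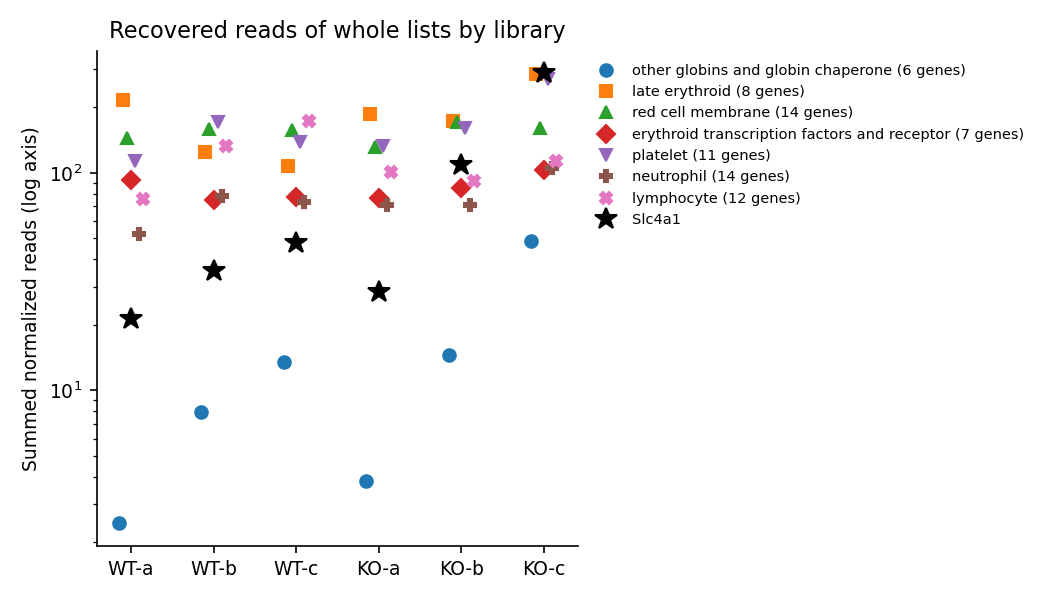
Summed normalized reads on a log axis for the solved genes of 7 lists in each of the 6 libraries, with Slc4a1 as black stars. In KO-c the other globins reach 48.6, late erythroid genes 283, transcription factor and receptor genes 103, platelet genes 271 and neutrophil genes 105. Each of these sums, and Slc4a1 at 287, is the highest of the 6 libraries. The lymphocyte sum of 113 and the red cell membrane sum lie within the range of the other libraries.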

How the data were processed

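The authors sequenced polyA-selected liver RNA and deposited 1 value per genotype and gene, a signal whose midpoint over genotypes is a normalized read count, with no replicate columns, as well as the transcript length and, in separate summaries, counts of clean reads and the percent of reads mapped per library. The submitters' processing notes name HISAT2, StringTie, Cufflinks, GATK, Bowtie2, RSEM and the build mm10. The deposited comparison is labelled DEseq2. Its columns of log2 fold change, p-value and adjusted p-value hold the authors' comparison and were not read. On the log2 scale, the ratio of the 2 deposited values equals the one the paper reports for Slc4a1 (1.47) and Txndc5 (-4.89). The ratios of deposited values given here are therefore not independent of the authors' comparison.

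The midpoint of the 2 genotype values equals the mean of the normalized reads over the 6 libraries, whereas their ratio is nearer to 0 than that of the genotype means. Size factors were found from genes with a single read, and reads per library were solved as whole numbers that match the midpoint within 2.5 times its rounding. Where several sets matched and the log2 ratio was past 0.5, only sets with the deposited direction were kept. The method was tested on simulated reads of 1193 genes, of which 1169 were resolved and all 1169 were right. These were modelled on genes already resolved and built with the same size factors and midpoint. The test therefore covers the solving of whole reads, and cannot show whether the size factors or the midpoint are right. In the deposited data, the solved direction was the deposited one in 1130 of 1130 genes with a single set and a log2 ratio past 0.5. Mean values of at least 10 and a fold of 1.5 were the limits for counts of genes, and a mean value of at least 1 for comparisons over libraries. limma 3.58.1 (R 4.3.3), with a trend, was fitted to log2(normalized reads + 1); other steps used Python 3.11.15, numpy 2.4.6 and pandas 2.3.3. The pools were separate mice, but the solved libraries could not be tied to pools. Read counts are not unique molecules.

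All 8 genes were named, and of each list the 3 genes with the highest mean value and up to 4 past 1.5-fold. Likeness to Slc4a1 named 8 genes. Some genes of the lists are counted but not reported here. The genes and lists were chosen with earlier results of these data known. Positions are from GENCODE M21 on GRCm38, upstream sequences from RefSeq, which matched 6 of the 8 genes.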

Additional observations from a re-analysis of the deposited data

How the results depend on the processing

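The count of red blood cell genes past the fold limit was 3 at 1.5-fold, 6 at a looser limit of values 25% apart and 1 at 2-fold. It was 4 after centring, when Hba-a1 passed at 0.61, 4 with no filter, when Ank1 passed, and 2 with a mean of at least 100, when Slc4a1 dropped out. Pathway genes higher in KO numbered 3 at 1.5-fold, 8 at the looser limit and 7 with no filter on low values, and those lower in KO numbered 0 at 1.5-fold and 4 at the looser limit; such a limit, or no filter, admits more genes by construction. The median log2 ratio of the red blood cell genes ranged from 0.66 to 0.72 over the pseudocounts, centring and summing of copies. Leaving out each library in turn gave log2 differences in normalized reads of 0.73 to 2.38 for Slc4a1 (1.52 with all libraries), 0.23 to 1.65 for Ank1 (1.04) and 0.41 to 1.39 for Epb42 (0.93), the lowest without KO-c for Slc4a1 and Ank1 and without KO-b for Epb42. limma called 0 genes under every setting run, with 21 to 169 genes at an unadjusted p under 0.05 when 1 library was left out. Of 12 pathway genes with solved reads, 0 were lower by the deposited values and 2 (Sptb and Slc4a7) by the solved means, a comparison added after the data had been seen, and 2 were higher by either. Without KO-c, 6 pathway genes had all other KO libraries above all WT libraries, against 5 with it. This check was added after the high values of KO-c had been seen. Leaving out a library cannot lower such a count. Over all solved genes with a mean of 1 or more, the share rose from 3.3% to 7.48%. No direction reversed in any alternative run. No paired analysis was possible because the solved libraries carry no pool number, and the genotypes share only 1 number in the labels. Depth limits Epb42, with 4 reads, and Ank1, with 37; the haemoglobin genes and Alas2 have no value per library and hence no error.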
